A study of Mus musculus with 12 samples.

Results

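The mRNAs of 4 bZIP transcription factors, Dbp, Tef, Hlf and Nfil3, were followed through the day in mouse liver. They were taken by gene symbol from the 20069 genes of the deposited RNA-Seq table, and all 4 were among the 10198 genes with at least 1 value above 8 reads per base pair (rpbp), which are called expressed here. The livers came from adult male C57BL/6 mice of 3 to 6 months, without a mutation or drug. The mice were kept in 12 hr of light and 12 hr of darkness for at least 2 weeks. Zeitgeber time (ZT) counts hours from lights on. Samples were taken every 4 hr from ZT2 to ZT22 in 2 series, labelled replicate 1 and replicate 2, which gives 12 libraries and n = 2 at each time point. The sources used here do not say how many animals make up a sample, so a p-value measures the spread between these samples.

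DBP, TEF and HLF are the PAR bZIP factors, named for a proline and acidic amino acid rich stretch beside the basic leucine zipper with which they bind DNA as dimers. They activate genes that carry a D-box, while NFIL3, also known as E4BP4, binds the same element and represses. Transcription of Dbp is driven through E-boxes by the clock activators CLOCK and BMAL1, and that of Nfil3 is repressed through ROR elements (ROREs) by the REV-ERB receptors. In liver the PAR bZIP factors are known for their control of detoxification and heme synthesis genes.

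The activators had their highest means at ZT6, the middle of the light phase, and Nfil3 had its highest at ZT22, late in the night. Dbp averaged 217 ± 34.3 rpbp at ZT6 and 1.94 ± 0.651 rpbp at ZT22 (SD, n = 2), 112-fold apart. All Dbp values at ZT18, ZT22 and ZT2 lay below the limit of 8 rpbp, so the size of this fold is uncertain. Tef averaged 135 ± 10.5 rpbp at ZT6 and 17.7 ± 1.41 rpbp at ZT2, 7.64-fold apart. Hlf had the smallest range of the 4, from 49.6 ± 0.905 rpbp at ZT6 to 24.1 ± 1.24 rpbp at ZT2, 2.06-fold. Nfil3 ran the other way, from 82.7 ± 6.62 rpbp at ZT22 to 18.8 ± 2.43 rpbp at ZT6, 4.39-fold.

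The DNA letters that the activators and the repressor of these genes are known to read were searched on both strands around the start of each gene. The E-box was CACGTG, the RORE core AGGTCA, and the D-box TTATGTAA or TTACGTAA. In the 3000 bases of mm9 from 500 before to 2500 after the annotated start, the letters of the D-box occurred 3 times in Nfil3 and 1 time in Tef, and the E-box occurred 2 times in Tef and 1 time in Hlf. Of 22379 such windows, 11.6% held a D-box and 0.116% held 3 or more, while 35.1% held an E-box and 8.64% held 2 or more. The RORE core was common, in 82.1% of windows, and occurred 2 times each in Dbp, Hlf and Nfil3 and 1 time in Tef. The Nfil3 D-boxes are shown because they are the letters the NFIL3 protein itself binds. The Nfil3 RORE core nearest the start is shown as the core of the element of the REV-ERB receptors, and it is not a full RORE. The Tef matches are shown because Tef is an activator gene with several E-boxes near its starts. Each line reads 5′ to 3′ along the gene, with the match in capitals.
Nfil3 D-box, intron, mm9 chr13:53076063-53076092, minus strand: cggggcatgcaTTACATAAacttttgctgc
Nfil3 D-box, intron, mm9 chr13:53075147-53075176, minus strand: gaaatgtgaggTTATGTAActgccgaattt
Nfil3 D-box, intron, mm9 chr13:53074362-53074391, minus strand: tagcgtaccatTTACATAAttgaactacaa
Nfil3 RORE core, exon, mm9 chr13:53076404-53076431, minus strand: gcgctcggaacTGACCTactaacacaca
Tef E-box, exon, mm9 chr15:81632965-81632992, plus strand: tgctgtggctcCACGTGctgcagctggc
Tef E-box, intron, mm9 chr15:81633510-81633537, plus strand: ggtgctgtgctCACGTGgggcaaggatg
Tef E-box, second RefSeq start, GRCm38.p6 chr15:81811265-81811292, plus strand: acctggcccagCACGTGtctacatcgtt
Tef D-box, intron, mm9 chr15:81633703-81633732, plus strand: atagaagctggTTATGTAAcaggaccacaa
Hlf E-box, exon, mm9 chr11:90250941-90250968, minus strand: ctgagcaggctCACGTGtaaccgcgtgc

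The shorter RefSeq windows, from 250 bases before to 50 after a start in the build GRCm38.p6, number 5 for the 4 genes, since Tef has 2 starts. Both Tef windows held an E-box, beginning at base -127 and at base -138 from the start, which 7.15% of 32851 windows do. The Nfil3 window held the RORE core beginning at base -12 from the start, which 16.3% of windows do. The Tef match at base -127 and the Nfil3 match are the exon sites printed above, which lie after the start of the longer mm9 annotation. None of the 5 windows held a D-box, which 1.06% of windows do. The Dbp windows of both lengths held no E-box. A match here is a description of letters only.

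Dbp lies on chromosome 7 at chr7:52960458-52965525 of mm9 on the plus strand. Its signal at ZT6 was 193 rpbp in series 1 and 241 rpbp in series 2, and at ZT10 it was 100.1 and 87.8 rpbp. At ZT14 it was 15.96 and 20.1 rpbp, at ZT18 6.92 and 4.04 rpbp, at ZT22 1.48 and 2.40 rpbp, and at ZT2 1.96 and 3.8 rpbp. From ZT6 to ZT18 each time point lay below the one before it in both series, and only the ZT22 and ZT2 values overlapped. The steepest change lay in the light phase, between ZT2 and ZT6.

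Tef lies on chromosome 15 at chr15:81632851-81657291 on the plus strand. Its signal was 128 and 142 rpbp at ZT6, 129 and 114 rpbp at ZT10, 89.8 and 90.8 rpbp at ZT14, 66.8 and 53.9 rpbp at ZT18, 25.2 and 23.6 rpbp at ZT22, and 16.7 and 18.7 rpbp at ZT2. The ZT6 and ZT10 values overlapped and the other neighbours in this order did not. Tef kept 44.7% of its ZT6 mean at ZT18, where Dbp kept 2.52%.

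Hlf lies on chromosome 11 at chr11:90197849-90252231 on the minus strand. Its signal was 49.0 and 50.3 rpbp at ZT6, 43.5 and 41.6 rpbp at ZT10, 45.4 and 43.2 rpbp at ZT14, 39.8 and 33.9 rpbp at ZT18, 35.7 and 34.9 rpbp at ZT22, and 25 and 23.2 rpbp at ZT2. The ZT10 and ZT14 values overlapped, as did those of ZT18 and ZT22, and both ZT2 values stood below all others. The ZT6 values were the highest in both series, and both ZT22 values lay below those of ZT10 and ZT14, at 71.2% of the ZT6 mean on average.

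Nfil3 lies on chromosome 13 at chr13:53062578-53076442 on the minus strand. Its signal was 78.0 and 87.4 rpbp at ZT22, 61.1 and 78.8 rpbp at ZT18, 52.7 and 48.8 rpbp at ZT2, 48.0 and 51.7 rpbp at ZT14, 25.4 and 29.4 rpbp at ZT10, and 20.6 and 17.1 rpbp at ZT6. The ZT22 and ZT18 values overlapped, as did those of ZT2 and ZT14, and the ZT6 values were the lowest in both series.

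**Figure D1:**
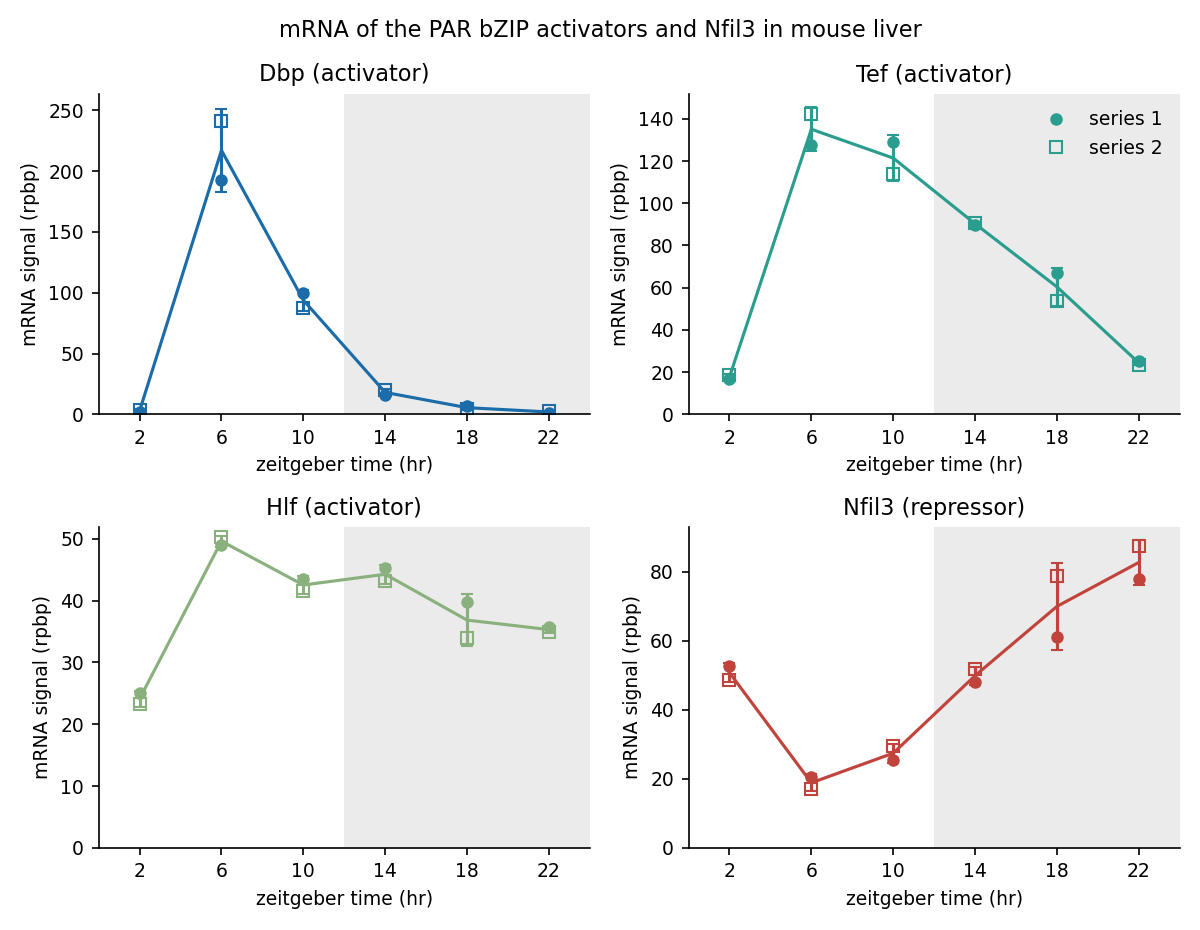
Each panel plots the mRNA signal (rpbp) of a gene against zeitgeber time (hr), with filled circles for series 1, open squares for series 2, a line through the means, bars of ± SD (n = 2) and darkness shaded. Dbp, Tef and Hlf are highest at ZT6, and Nfil3 is lowest at ZT6 and highest at ZT22.

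The libraries were alike in most respects, and samples taken at the same time had correlations across expressed genes, on the log2(rpbp + 1) scale, of 0.975 to 0.987. All 6 hepatocyte markers were expressed, with Alb at a mean of 97960 rpbp, and all 6 lymphocyte markers stayed below 8 rpbp with a summed level of 3.72 to 13.6 rpbp. The ZT2 libraries stood apart. The sum of the 6 hepatocyte markers was 83223 and 86185 rpbp at ZT2 and 123342 to 157851 rpbp at the other times, and that of 6 Kupffer cell markers was 653 and 657 rpbp at ZT2 and 334 to 520 rpbp elsewhere. The hepatocyte sum is mostly Alb, and the markers did not move alike: Alb, Ttr, Cps1 and Tat had their lowest mean at ZT2, while Apoa1 (17593 rpbp) and Serpina1a (3880 rpbp) had their highest there. Of the 4 bile duct markers in the table, 2 were above 8 rpbp, and their summed level was 129 and 229 rpbp at ZT2 and 63.7 to 144 rpbp elsewhere. Of 6 endothelial and 5 stellate cell markers, 6 and 4 were above 8 rpbp, and both sums at ZT2 lay within the range of the other times. None of these markers was at 0 in all libraries. Of the expressed genes, 21.9% had their lowest mean at ZT2, as did Tef and Hlf. The part of these differences in the results on Tef and Hlf was not tested. In whole liver, fewer cells of a type and less RNA per cell cannot be told apart.

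The first question was whether each mRNA followed a 24 hr rhythm. F24 is the share of the variance of the 12 values that lies in the 24 hr component, its p comes from 10000 random orders of the values, and a gene's highest value divided by its lowest is its amplitude. With the study's criteria (p below 0.05, F24 above 0.45, amplitude above 1.5) 19.1% of expressed genes were rhythmic, and all 4 members were among them. The study's stricter criteria for a strong rhythm (F24 above 0.6 and a higher limit on the amplitude) were met by 7.89% of expressed genes and by Dbp, Tef and Nfil3. After Benjamini-Hochberg adjustment over the expressed genes, 5.62% had an adjusted permutation p below 0.05.

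Nfil3 had the highest F24 of the 4, 0.925 (permutation p = 2e-04, adjusted p = 0.0167), which ranked 22 of 10198, with an amplitude of 5.10. Tef had F24 of 0.795 and an amplitude of 8.54 (permutation p = 0.0032, adjusted p = 0.0529), just outside the adjusted threshold. Dbp had F24 of 0.628 with an amplitude of 163 (permutation p = 0.0021, adjusted p = 0.0421). Hlf passed the study's criteria by little, with F24 of 0.496, an amplitude of 2.16 and permutation p = 0.0489, and it did not pass after adjustment (adjusted p = 0.185). The call of Hlf was lost in 9 of the 12 cases with a sample left out, with the replicate number as a block (permutation p = 0.0609) and in the limma test of a 24 hr cosine (adjusted p = 0.134). Without the ZT2 samples, a comparison chosen after seeing the data, Hlf had an amplitude of 1.48 and was not called rhythmic (F24 0.686, permutation p = 0.0242), while Dbp, Tef and Nfil3 kept their calls with F24 of 0.865, 0.905 and 0.926. The median over all expressed genes was 0.310 for F24 and 1.64 for the amplitude.

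The order by F24 was thus not the order by amplitude. The 24 hr component held 62.8% of the variance of Dbp, the 12 hr component 27.5% and the 8 hr component 8.02%. On the log2(rpbp + 1) scale its 24 hr share was 82.4%. In Tef the 24 hr and 12 hr shares were 79.5% and 15.8%. In Hlf the 24 hr, 12 hr and 8 hr shares were 49.6%, 20.2% and 27.2%. In Nfil3 the 24 hr share was 92.5% and the 12 hr share 3.73%, close to a pure daily wave. The difference between the 2 samples of a time point took 1.30% to 3.74% of the variance in the 4 genes.

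**Figure D2:**
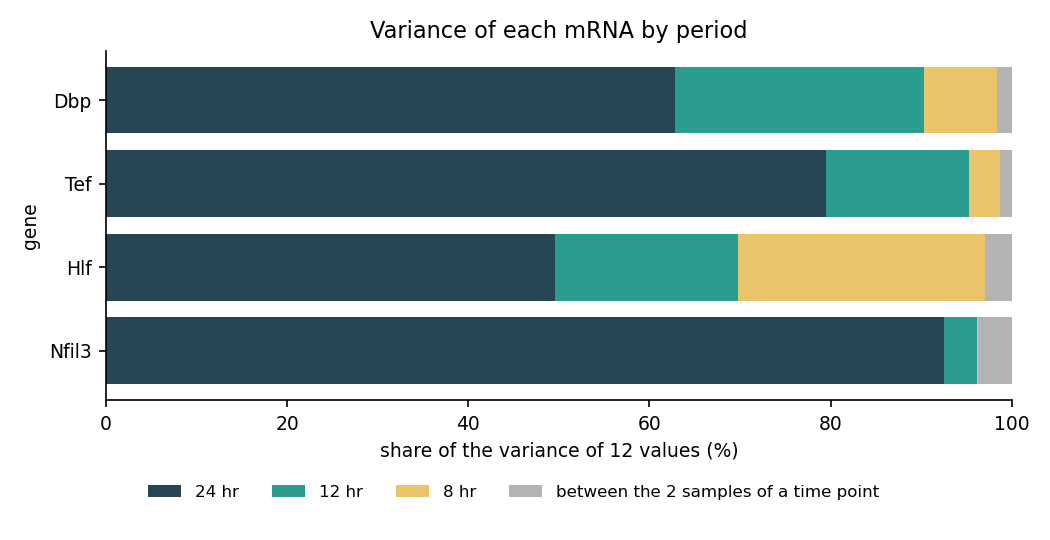
Stacked bars give, for each gene, the share (%) of the variance of its 12 rpbp values in the 24 hr, 12 hr and 8 hr components and between the 2 samples of a time point. The 24 hr share is 92.5% in Nfil3 and 49.6% in Hlf, whose 8 hr share of 27.2% is the highest of the 4.

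The peak time, in hr after lights on, was taken as the phase of the 24 hr component, with no test. It was 7.36 hr for Dbp (7.54 hr in series 1 and 7.20 hr in series 2), 9.96 hr for Tef (10.2 hr and 9.68 hr), 11.01 hr for Hlf (11.5 hr and 10.5 hr) and 20.1 hr for Nfil3 (20.5 hr and 19.8 hr). The order Dbp, Tef, Hlf, Nfil3 was the same in both series. Tef followed Dbp by 2.60 hr (2.69 and 2.49 hr in the series) and Hlf followed Tef by 1.05 hr (1.31 and 0.795 hr), and on the log2(rpbp + 1) scale these lags were 1.95 and 0.567 hr. With a sample left out the peak time of Tef ran from 9.54 to 10.49 hr and that of Hlf from 10.14 to 11.99 hr, so that these ranges overlap. Nfil3 followed Dbp by 12.8 hr, Tef by 10.2 hr and Hlf by 9.12 hr, and on the log2(rpbp + 1) scale by 10.9, 8.93 and 8.36 hr. The opposition of the repressor was therefore nearest to 12 hr for Dbp and was shorter for Tef and Hlf. All 3 activators had their highest mean at ZT6, and at ZT18 Dbp, Tef and Hlf were at 2.52%, 44.7% and 74.3% of it.

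The time of day effect was next tested without an assumed shape, by the limma F-test over 6 time points on log2(rpbp + 1), for which 17.6% of expressed genes had an adjusted p below 0.05. All 4 members passed. The limma adjusted p was 3.51e-05 for Tef, 3.86e-05 for Dbp, 0.000746 for Nfil3 and 0.00360 for Hlf, and their F ranked 5, 6, 29 and 183 of 10198. Hlf did not pass without the ZT2 samples (limma adjusted p = 0.0992), and the other members did.

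The question of when each mRNA rose and fell was addressed with the 4 hr steps of the same limma model. From ZT2 to ZT6 10.5% of expressed genes were higher and 8.59% were lower at an adjusted p below 0.05. In this step Dbp, Tef and Hlf rose by 5.85 ± 0.289, 2.86 ± 0.129 and 1.01 ± 0.101 (log2 difference ± SE), and Nfil3 fell by 1.39 ± 0.149, with limma adjusted p of 1.99e-05, 1.06e-05, 0.000682 and 0.000926. This was the only step that all 4 genes passed, and it starts from the ZT2 libraries that stood apart in their markers.

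From ZT6 to ZT10 the background was 0.127% higher and 0.108% lower, and no member passed. The Dbp difference in that step was -1.19 ± 0.289 (limma adjusted p = 0.151). From ZT10 to ZT14, where 0.402% were higher and 0.167% lower, Dbp fell by 2.32 ± 0.289 (limma adjusted p = 0.0236) and Nfil3 had a difference of 0.84 ± 0.149 (limma adjusted p = 0.0530). The Dbp call was lost when any of 6 of the 12 samples was left out (limma adjusted p up to 0.0898). From ZT14 to ZT18 the background was 0.137% higher and 0.0981% lower, and no member passed, with limma adjusted p of 0.0720 for Dbp and 0.0934 for Tef.

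From ZT18 to ZT22 only 0.00981% of expressed genes were higher and 0.0294% lower, and Tef was among the latter, having fallen by 1.27 ± 0.129 (limma adjusted p = 0.0248). From ZT22 to ZT2 0.657% were higher and 1.02% lower, and Hlf fell by 0.53 ± 0.101 (limma adjusted p = 0.0432). Both calls rest on little: the Tef call was lost in 4 and the Hlf call in 10 of the 12 fits that left out a sample, with limma adjusted p up to 0.244 and 0.207. The Nfil3 difference from ZT22 to ZT2 was -0.69 ± 0.149 (limma adjusted p = 0.0584). With the replicate number as a block neither passed (limma adjusted p = 0.0724 and 0.0524). In the same steps Dbp differed by -1.12 ± 0.289 from ZT18 to ZT22 and Tef by -0.44 ± 0.129 from ZT22 to ZT2, and neither passed (limma adjusted p = 0.226 and 0.125). Whether the steps differ between the genes was not tested.

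The activators and the repressor were then compared at times 12 hr apart. From ZT6 to ZT18 1.52% of expressed genes were higher and 1.22% lower. Dbp fell by 5.10 ± 0.289 and Tef by 1.15 ± 0.129, and Nfil3 rose by 1.83 ± 0.149 (limma adjusted p = 0.000128, 0.00360 and 0.000696). From ZT10 to ZT22, where 3.78% were higher and 3.25% lower, Dbp fell by 5.03 ± 0.289 and Tef by 2.27 ± 0.129, and Nfil3 rose by 1.56 ± 0.149 (limma adjusted p = 0.000109, 0.000109 and 0.00137). Hlf differed by -0.42 ± 0.101 and -0.26 ± 0.101 in these contrasts and passed in neither (limma adjusted p = 0.0693 and 0.164).

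From ZT2 to ZT14 the background was 6.72% higher and 5.66% lower. Dbp rose by 2.33 ± 0.289, Tef by 2.29 ± 0.129 and Hlf by 0.85 ± 0.101 (limma adjusted p = 0.00257, 4.68e-05 and 0.00229). Nfil3 differed by -0.02 ± 0.149 (limma adjusted p = 0.937), with both pairs of samples between 48.0 and 52.7 rpbp. At these times Nfil3 was on its way down and on its way up, at 61.4% and 60.3% of its ZT22 mean.

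**Figure D3:**
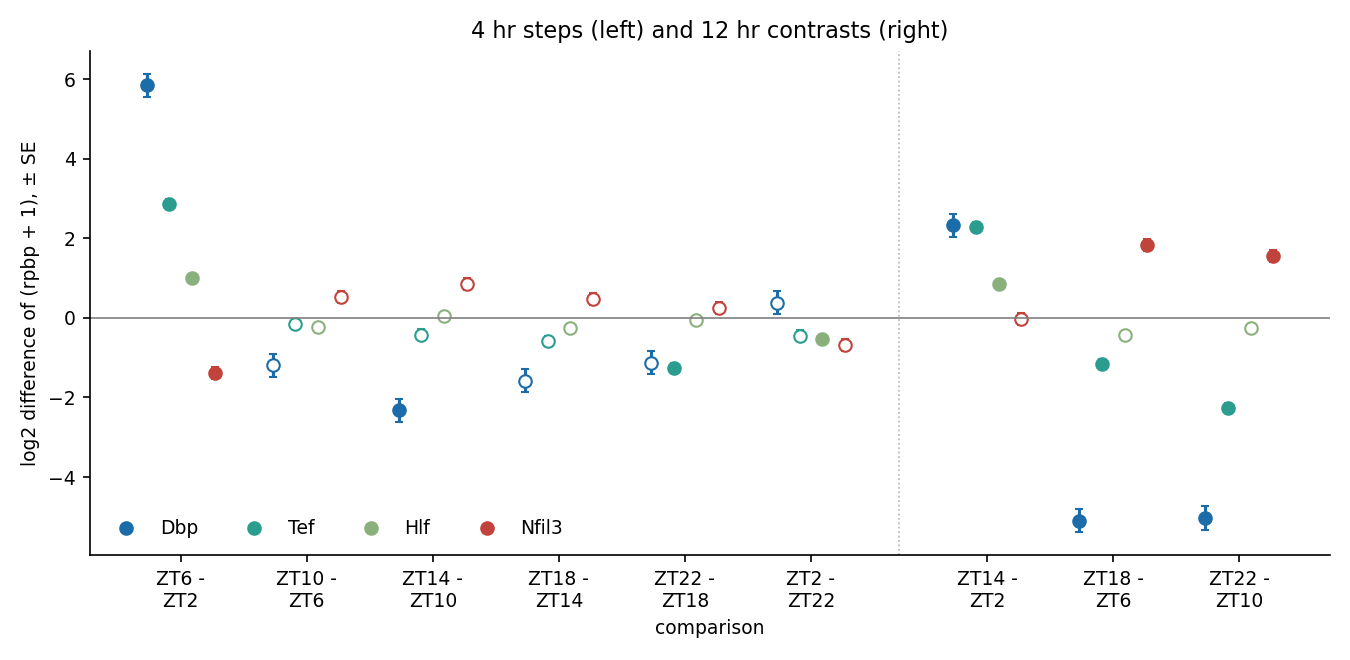
Points give the log2 difference of (rpbp + 1) between time points with bars of ± SE from limma, for the 6 steps of 4 hr on the left and the 3 contrasts of 12 hr on the right, filled where the adjusted p was below 0.05. The largest step is that of Dbp from ZT2 to ZT6 (5.85), and Nfil3 is on the opposite side of 0 from Dbp and Tef in the ZT18 - ZT6 and ZT22 - ZT10 contrasts.

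The level in rpbp is per base of the merged exons of all isoforms, so exons that liver does not use lower a gene's level, and ratios between genes near 1 carry no order. The summed signal of Dbp, Tef and Hlf was 17.97 and 25.4 times that of Nfil3 in the ZT6 samples, 10.7 and 8.26 times at ZT10, and 3.14 and 2.98 times at ZT14. It was 1.86 and 1.17 times at ZT18, 0.799 and 0.697 times at ZT22, and 0.828 and 0.938 times at ZT2. The ratio was highest in the ZT6 samples and lowest in those of ZT22 and ZT2, and only this change over time is read from it. As a share of the 4 summed signals, Nfil3 went from 4.53 ± 1.04% at ZT6 to 57.2 ± 2.36% at ZT22 (SD, n = 2).

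The makeup of the activator sum changed with the time of day. The share of Dbp was 53.9 ± 2.41% at ZT6 and 3.16 ± 1.11% at ZT22. That of Tef was 33.7 ± 1.22% at ZT6, 47.1 ± 0.411% at ZT10, 59.2 ± 0.333% at ZT14 and 58.8 ± 0.123% at ZT18. That of Hlf, the flattest of the 3, was 12.4 ± 1.19% at ZT6, 57.3 ± 0.0288% at ZT22 and 54.1 ± 4.56% at ZT2. The ratio of Hlf to Nfil3 was 2.38 and 2.94 at ZT6 and 0.458 and 0.3997 at ZT22, a smaller range than that of Dbp to Nfil3, 9.38 and 14.1 at ZT6 and 0.0190 and 0.0275 at ZT22. These are mRNA levels and do not give the amounts of protein.

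**Figure D4:**
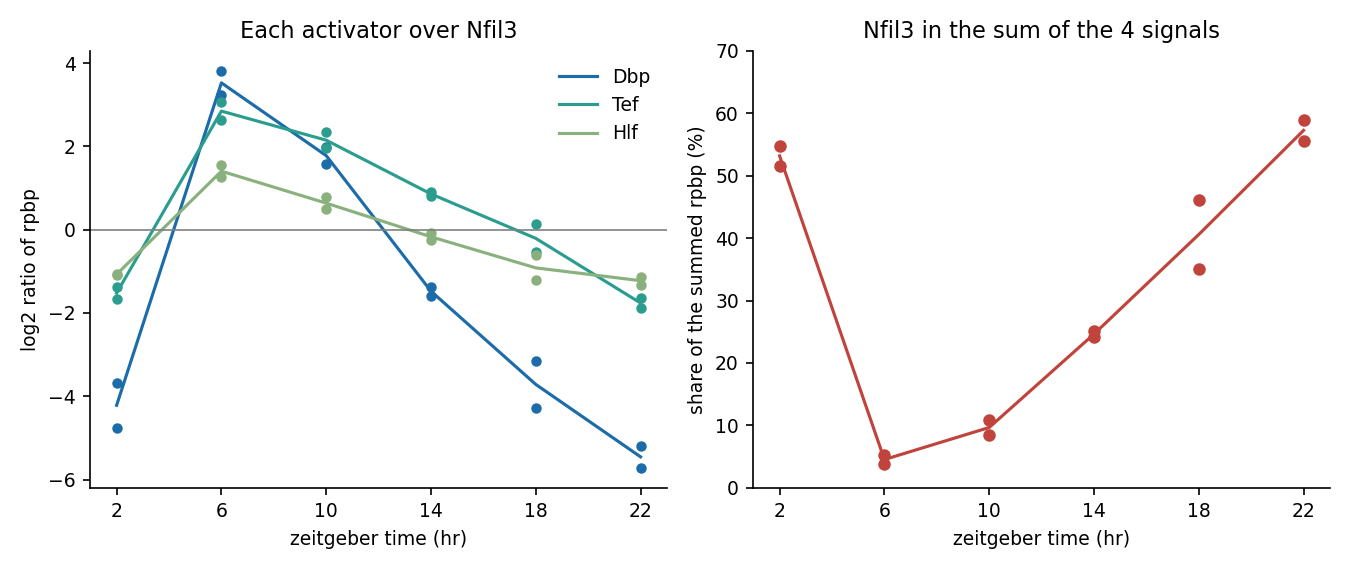
The left panel plots the log2 ratio of each activator's rpbp to that of Nfil3 against zeitgeber time (hr), and the right panel the share (%) of Nfil3 in the summed rpbp of the 4 genes, with a point for each sample and lines through the means. The share of Nfil3 lies between 3.79% and 5.27% at ZT6 and between 55.6% and 58.9% at ZT22.

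The likeness of the curves was described by Pearson's r of log2(rpbp + 1) over the 12 samples, which share their libraries and time points. It was 0.893 between Dbp and Tef, 0.902 between Tef and Hlf and 0.762 between Dbp and Hlf. Nfil3 had r of -0.939 with Dbp, -0.718 with Tef and -0.548 with Hlf.

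The 5 genes most like Dbp were Rapgef1 (r = 0.974), Fech, Akr1c14, Pcsk4 and Slc7a2 (0.949), of which Fech encodes ferrochelatase, the last enzyme of heme synthesis. Pearson's r takes no account of the size of a change. Rapgef1 and Fech had amplitudes of 1.47 and 1.31 and were not called rhythmic, while Akr1c14, Pcsk4 and Slc7a2 were. Least like Dbp were Clock (r = -0.977), the row bmal1b (-0.970) and Arntl (-0.969), which encodes BMAL1. By its name the row bmal1b stands for the same product as Arntl, and their peak times were 21.07 and 21.05 hr. These rows are therefore not counted as independent matches. The 5 most like Tef were Wee1 (r = 0.994), a kinase that restrains entry into mitosis, the clock gene Per3 (0.991), Idh2, Ngef and Gpd1l (0.966), and the least like were the row ni-2 (-0.965), Tmem30a and Abca2 (-0.953).

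The 5 most like Hlf were Cnn3 (r = 0.983), Abhd14b, Slco1a4, the glucose transporter gene Slc2a2 and Aifm1 (0.955), and the least like were Cmtm6 (-0.969), Tmem30a and Atxn7l1 (-0.938). The 5 most like Nfil3 were the choline kinase gene Chka (r = 0.979), Pnrc1, Ypel2, bmal1b and Arntl (0.949). The least like were Slc38a3 (-0.949), Nr1d2 (-0.947), which encodes the repressor REV-ERBβ, and Fech (-0.943). Arntl and bmal1b thus stood among the genes most like Nfil3 and least like Dbp, and Fech the reverse. The place of Fech reflects the shape of its curve and not its size, since its amplitude was 1.31.

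Among genes known to act upstream of the members, the activator genes Arntl, Clock and Npas2 had peak times of 21.1 hr, 21.2 hr and 21.9 hr, within 2 hr after Nfil3. Their highest mean was at ZT22, with Arntl at 26.7 ± 1.33 rpbp there and 1.60 ± 0.679 rpbp at ZT6. The genes of the REV-ERB repressors, Nr1d1 and Nr1d2, had peak times of 5.33 hr and 8.05 hr and were highest at ZT6, the time of the lowest Nfil3, with means of 125 ± 23.6 and 99.5 ± 5.49 rpbp. Rora, whose product activates through the same element, was not called rhythmic (F24 0.290, permutation p = 0.214) but passed the limma time of day test (adjusted p = 0.0356).

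The clock genes with a reported D-box were Per1, Per2, Per3, Nr1d1, Nr1d2, Rora and Cry1, and 6 of these 7 were rhythmic, all but Rora, against 19.1% of expressed genes. Rorb was not analysed here. The period genes, which encode repressors of CLOCK and BMAL1, had peak times of 11.3 hr, 12.2 hr and 9.69 hr, and Cry1 one of 17.3 hr, between those of the activators and of Nfil3. Per2 averaged 38.0 ± 2.89 rpbp at ZT14 and 3.56 ± 0.453 rpbp at ZT2. From ZT10 to ZT22, 4 of the 7 fell and 1 rose in the limma contrast, against 3.25% lower and 3.78% higher among expressed genes.

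The 11 reported PAR bZIP target genes of liver metabolism were all expressed, and 8 were rhythmic, 5 of them with an adjusted permutation p below 0.05. Over all expressed genes these shares were 19.1% and 5.62%. The median F24 of the targets was 0.579, against 0.310 over all expressed genes. The 5 were Por, which encodes the electron donor of the cytochrome P450 enzymes (F24 0.927, peak time 11.3 hr), the nuclear receptor gene Nr1i3 (0.719, 12.0 hr), the P450 genes Cyp2a5 (0.679, 12.1 hr) and Cyp7a1 (0.599, 11.4 hr), the latter encoding the rate-limiting enzyme of bile acid synthesis, and the vitamin B6 kinase gene Pdxk (0.757, 13.2 hr). The peak times of these 5 lay after those of the 3 activators and before that of Nfil3, although Por, Cyp7a1 and Nr1i3 were nearer to Hlf than the 2 series of Hlf were to each other.

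Alas1, which encodes the rate-limiting enzyme of heme synthesis, had a peak time of 9.47 hr and averaged 841 ± 36.5 rpbp at ZT10 and 101 ± 47.8 rpbp at ZT22 (permutation p = 0.0053, adjusted p = 0.0652). Cyp2a4 and Cyp2b9 met the study's criteria with permutation p of 0.0101 and 0.0438 and had peak times of 9.53 and 10.1 hr. Cyp2b9 was at 0.48 and 0.84 rpbp in the ZT2 samples and at 67.1 to 627 rpbp in all others. Cyp2a4 was at 0.08 and 0 rpbp at ZT2 and at 0.36 to 50.8 rpbp at the other times. Whether the low ZT2 values belong to the time of day or to those samples was not tested. The peak times of Alas1, Cyp2a4 and Cyp2b9 thus lay before that of Hlf, and those of Alas1 and Cyp2a4 before that of Tef. Cyp2b10, Ppara and Fgf21 did not meet the study's criteria (permutation p = 0.274, 0.0805 and 0.257). In the limma time of day test 9 of the 11 targets passed, Cyp2b10 and Ppara among them (adjusted p = 0.0078 and 0.0022), against 17.6% of expressed genes. Alas1 and Fgf21 did not pass that limma test (adjusted p = 0.0871 and 0.308). In the limma contrast from ZT10 to ZT22, 7 of the 11 fell and none rose, against 3.25% lower and 3.78% higher over expressed genes, and from ZT2 to ZT14 8 rose and none fell, against 6.72% higher and 5.66% lower. From ZT6 to ZT18 no target passed in either direction, with a median log2 difference of -0.48, while Dbp differed by -5.10 and Nfil3 by 1.83 in the same contrast. The lowest mean of 10 of the 11 targets was at ZT2, where 21.9% of expressed genes had theirs, the marker sums stood apart as described, and their part was not tested.

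The C/EBP genes, which encode related bZIP factors of liver, served for comparison. Of 6, 1 met the study's criteria, a share near the 19.1% of all expressed genes. It was Cebpa (F24 0.631, amplitude 1.69, permutation p = 0.0052, adjusted p = 0.0647), with a peak time of 7.45 hr, near that of Dbp. In the limma time of day test 3 of the 6 passed, Cebpa, Cebpd and Cebpe, against 17.6% of expressed genes. The median F24 of the family was 0.299, against 0.310 over all expressed genes.

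**Figure D5:**
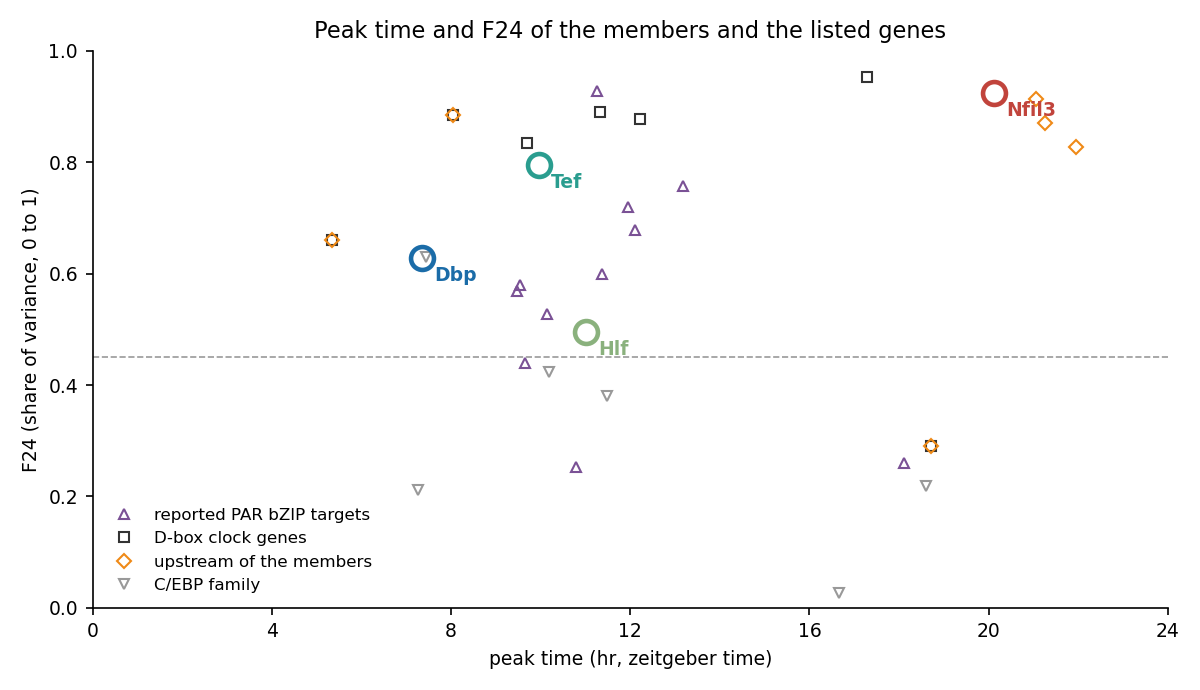
Peak time (hr) is plotted against F24 (0 to 1) for the 4 members (rings), the reported PAR bZIP targets (triangles), the D-box clock genes (squares), the upstream genes (diamonds, on a square where a gene is in both lists) and the C/EBP genes (inverted triangles), with the F24 criterion of 0.45 dashed. The 5 targets with an adjusted p below 0.05 lie between 11.3 hr and 13.2 hr, and Nfil3 at 20.1 hr lies near Arntl, Clock and Npas2.

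The signal was counted without regard to strand, and the exons of Dbp share 491 bases with those of Sphk2 on the minus strand, 16.7% of the exon length of Dbp and 11.8% of that of Sphk2. Reads from these bases cannot be told apart. Sphk2, which encodes a sphingosine kinase, was at 32.2 and 29.9 rpbp at ZT6, when Dbp was at its highest, and at 42.6 and 54.8 rpbp at ZT18. It was not called rhythmic (F24 0.434, permutation p = 0.0646), but it passed the limma time of day test (adjusted p = 0.0105). Sphk2 rose from ZT14 to ZT18 by 0.93 (limma adjusted p = 0.0313), and from ZT6 to ZT18, where Dbp fell, by 0.63 (limma adjusted p = 0.0364). At ZT22 and ZT2, Sphk2 was at 33.6 to 40.2 rpbp and Dbp at 1.48 to 3.8 rpbp. The part of Sphk2 reads in the low values of Dbp was not tested. Tef shares 193 exon bases, 2.45% of its exon length, with the noncoding gene Gm17597, which was not analysed here.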

How the data were processed

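Poly(A) RNA of 12 mouse liver samples was sequenced by the authors. Per the submitters' processing notes and the study's methods, CASAVA 1.8 and TopHat were used with the mouse build mm9, and only uniquely mapped sequences were kept. The deposited signal is coverage in reads per base pair over the merged exons of a gene's isoforms, without strand, per 10000000 mapped sequences; it was multiplied here by 4, the scale of the study's criteria. Being coverage, it gives no counting error or floor, and the column sums over all genes were 1.49e+06 to 1.55e+06 rpbp. The columns headed ZT20 were read as ZT22, the time the labels give. Deposited columns with the authors' own F24 score, phase and p-value were not used.

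F24 and its permutation p (10000 orders, seed 1) were computed with Python 3.11.15 and numpy 2.4.6, and time of day effects with limma 3.58.1 in R 4.3.3 on log2(rpbp + 1), so fold changes of low values are understated. P-values were adjusted by Benjamini and Hochberg over the 10198 expressed genes, within each contrast. The 6 steps and 3 contrasts share samples. Procedures were tested on simulated data. Alternatives were another pseudocount (0.1), minimum (16 rpbp or none), scaling, a replicate block, and leaving out samples or series. Sequences came from the mm9 genome with its GENCODE annotation, and from RefSeq (GRCm38.p6). The members and gene lists were chosen with earlier results of these data known. The genes named are the members, the genes of the lists, the genes with overlapping exons, and the 5 most and 3 least like each member by Pearson's r over 12 samples. A further gene planned for the list of upstream genes is not reported here, so no count over that list is given.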

Additional observations from a re-analysis of the deposited data

How the results depend on the processing

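The replicate numbers gave little sign of pairing the samples. Over 15 pairs of same-numbered samples, the correlation across genes of their deviations from the time point means ran from -0.153 to 0.206 (median -0.0258). It was above 0.1 in 2 pairs. Such a correlation cannot show that the samples of a series share no batch, and it does not speak for single genes. With the replicate block Hlf was no longer called rhythmic (F24 0.502, permutation p = 0.0609), and the steps of Tef from ZT18 to ZT22 (-1.27, limma adjusted p = 0.0724) and of Hlf from ZT22 to ZT2 (-0.53, limma adjusted p = 0.0524) lost their calls; the share of rhythmic genes was 17.7%. No other call on the members changed under the block.

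The limma test of a 24 hr cosine gave Hlf an adjusted p of 0.134, and 8.12% of genes were rhythmic with it; with an adjusted permutation p beside the F24 and amplitude limits the share was 4.82%. With no minimum, the steps of Dbp from ZT10 to ZT14 (-2.32), Tef from ZT18 to ZT22 (-1.27) and Hlf from ZT22 to ZT2 (-0.53) lost their calls, with more genes to adjust over. With a minimum of 16 rpbp, Nfil3 passed from ZT10 to ZT14 (0.84) and from ZT22 to ZT2 (-0.69), with fewer genes. With size factors the Nfil3 difference from ZT2 to ZT14 was 0.0092. On the log2 scale the peak time was 8.98 hr for Dbp and 10.92 hr for Tef. Without the ZT2 samples (chosen after seeing the data), Hlf had F24 of 0.686 and a time of day adjusted p of 0.0992 by limma.

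With a sample left out, F24 of Hlf ran from 0.463 to 0.563, with permutation p of 0.0383 to 0.086 and the call lost in 9 of 12 cases. The calls of the other members held, with F24 from 0.559 to 0.7002 for Dbp, 0.764 to 0.845 for Tef and 0.913 to 0.973 for Nfil3. With 1 series of 6 samples the exact p cannot go below 0.0167, and the calls of Dbp, Tef and Hlf were lost without either series and that of Nfil3 without replicate 1, with F24 of 0.607 to 0.673 for Dbp, 0.777 to 0.824 for Tef, 0.479 to 0.551 for Hlf and 0.936 to 0.968 for Nfil3; the share of rhythmic genes was 2.80% to 3.62%. Of the differences with a sample left out, Dbp from ZT10 to ZT14 ran from -2.48 to -2.17, Tef from ZT18 to ZT22 from -1.42 to -1.11, Hlf from ZT22 to ZT2 from -0.58 to -0.48, Nfil3 from ZT10 to ZT14 from 0.74 to 0.94 and from ZT22 to ZT2 from -0.77 to -0.61. The peak time ran from 6.73 to 7.797 hr for Dbp, 9.54 to 10.49 hr for Tef, 10.14 to 11.99 hr for Hlf and 19.9 to 20.2 hr for Nfil3. Differences near 0 changed sign, Hlf from ZT18 to ZT22 from -0.168 to 0.0566 and Nfil3 from ZT2 to ZT14 from -0.0793 to 0.0312. The cause of these changes was not tested.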
